A study of Mus musculus with 39 samples.

Results

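The Brn3 and Islet genes encode homeodomain transcription factors that give sensory neurons their identity, and 5 of them (Pou4f1, Pou4f2, Pou4f3, Isl1 and Isl2) were followed here through mouse dorsal root ganglia (DRG). All probe sets annotated to a single gene of this group were taken, whatever their values. They were 6 of the 45037 probe sets tested and stood for 4 of the 18193 genes with a probe set. Pou4f1 was measured by probe sets 1429667_at (the brighter) and 1429668_at (the dimmer), Isl1 by 1450723_at (the brighter) and 1422720_at (the dimmer), Isl2 by 1418676_at and Pou4f3 by 1422353_at. Pou4f2 has no probe set under this annotation and was not analysed here.

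Brn3 factors pair a POU-specific domain with a homeodomain, and Islet factors pair a homeodomain with LIM domains that bind cofactors such as Ldb1. Pou4f1 (Brn3a) and Isl1 are switched on as sensory neurons leave the cell cycle, are kept in most of them, and are known to end an early program of bHLH genes and to be needed for neurotrophin receptor and Runx expression. Pou4f3 (Brn3c) is best known from hair cells of the inner ear, and Isl2 from subsets of motor, sensory and retinal neurons.

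The study asked which genes mark proprioceptors, the sensory neurons of muscle, and how the neurotrophin NT3 shapes them. All newborn (p0) mice, including the wild-type ones, carried the TrkCGFP BAC transgene, in which TrkC regulatory elements drive GFP. DRG cells were sorted by GFP, and the TrkC-GFPon cells are called proprioceptors here and the TrkC-GFPoff cells non-proprioceptors. The latter were chosen only by the lack of GFP, so that they may hold any other DRG cell. The first 16 arrays came from pooled lumbar DRG of wild-type, Bax-/-, NT3-/-Bax-/- and mlcNT3 mice, with 2 arrays for each population and 350 sorted cells per array on average. Loss of Bax keeps neurons alive that would die without NT3, and Bax-/- mice are thus the control for NT3-/-Bax-/- mice. In mlcNT3 mice a myosin light chain promoter drives NT3 in skeletal muscle, and their DRG hold more proprioceptors. A further 11 arrays came from 100 sorted cells each, taken at L1 or L5 in newborn wild-type TrkCGFP mice, with 2 arrays of L1 proprioceptors and 3 of the 3 other populations. The last 12 arrays came from whole L1 or L5 DRG of adult wild-type mice kept for 5 weeks with or without a running wheel (3 arrays per group). The labels give a 129/C57Bl6 background throughout, while the methods give male C57Bl6 mice, 5 weeks old at the start, for the running experiment. Nothing says that the arrays of a group came from separate mice, and the p-values then measure only the spread between these arrays.

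Values are log2 intensities. A difference has the sign of the group named first and is given with limma's standard error (SE). A probe set was called where the Benjamini-Hochberg adjusted p over all 45037 probe sets was under 0.05. Counts of members are counts of the 6 member probe sets. Pou4f1 and Isl1 have 2 each, which are not independent measures. Array medians lay between 6.02 and 6.18 and arrays of a group correlated at 0.972 or above. Across 14 genes of other organs (such as the milk protein Csn2 and the sperm protein Prm1) the pooled p0 values had a median of 5.11, with gene means between 3.39 and 7.89. The sorted populations carried the neuron markers of their labels. In wild-type proprioceptors all 4 measured markers (Pvalb, Runx3, Ntrk3 and Esrrg) were called higher, and 4 of 5 nociceptor markers were called lower. Glial markers were high in both, however. The 6 measured ones averaged 10.23 and 10.45 on the wild-type proprioceptor arrays and 10.40 and 10.42 on the non-proprioceptor arrays. Both arrays of NT3-/-Bax-/- non-proprioceptors stood apart from the rest in their makeup. Their 5 fibroblast markers averaged 11.99 and 12.76, against 7.15 and 8.55 in Bax-/- non-proprioceptors, and the results that rest on them are given with this in view.

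The bases upstream of the RefSeq start sites of Pou4f1, Isl1 and Isl2 are shown because Pou4f1 and Isl2 were lower in proprioceptors while Isl1 was not. They come from GRCm38.p6, run 5′ to 3′ on the strand of the gene and end at the base before the start site, except for Pou4f1, where the stretch inside the outer bounds of the gene is left out. For Isl2 the window lies within those bounds, and only its last 30 bases are shown. Capitals mark TAAT, the core of many homeodomain sites, and TGACGTCA, the cAMP response element. Both were looked for on both strands and were not fixed in advance.
Pou4f1, chr14:104468119-104468249, minus strand: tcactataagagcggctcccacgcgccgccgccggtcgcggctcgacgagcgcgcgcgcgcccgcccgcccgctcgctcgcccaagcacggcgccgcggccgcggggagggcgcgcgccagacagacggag
Isl1, chr13:116309689-116309938, minus strand: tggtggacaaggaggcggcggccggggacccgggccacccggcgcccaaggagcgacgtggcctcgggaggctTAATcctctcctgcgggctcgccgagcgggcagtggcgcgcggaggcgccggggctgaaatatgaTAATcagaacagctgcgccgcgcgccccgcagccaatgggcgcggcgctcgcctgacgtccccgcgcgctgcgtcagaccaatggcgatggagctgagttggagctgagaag
Isl2, chr9:55541119-55541148, plus strand: gccccgggcgagtgcgtgcTGACGTCAtgc
Over the whole 250 bases upstream of each start, Isl1 held 2 TAAT matches while Pou4f1 and Isl2 held 0. TAAT is present in 54.9% of the 32851 windows of that length in the RefSeq table. Isl2 held 1 TGACGTCA, which 1.55% of windows have, and Pou4f1 and Isl1 held 0. The Pou4f1 window was the richest in CpG, with 47 against a median of 6 over all windows, and Isl1 had 33 and Isl2 16. CCAAT, also looked for on both strands, was found 2 times in Isl1 and in Isl2 and 0 times in Pou4f1, and 33.8% of windows hold it. These matches describe letters in a window, and binding was not measured.

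Isl2 had the largest differences between the sorted populations where NT3 was present. In wild-type mice Isl2 measured 9.29 and 9.27 on the proprioceptor arrays and 11.21 and 11.13 on the non-proprioceptor arrays. In Bax-/- mice the values were 8.80 and 8.74 against 11.37 and 10.83, and in mlcNT3 mice 8.74 and 8.64 against 11.33 and 11.05. No proprioceptor array reached any non-proprioceptor array of these 3 genotypes. The difference was -1.89 ± 0.25 in wild-type (adjusted p = 3.58e-04, limma), a fold of 3.71. It was -2.33 ± 0.25 in Bax-/- mice (adjusted p = 1.02e-04, limma) and -2.50 ± 0.25 in mlcNT3 mice (adjusted p = 4.72e-05, limma).

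Pou4f1, the main Brn3 factor of the DRG, was lower in proprioceptors of wild-type, Bax-/- and mlcNT3 mice on at least 1 of its probe sets. On the brighter probe set wild-type proprioceptors gave 11.43 and 11.38 and wild-type non-proprioceptors 12.20 and 12.13. On the dimmer one the same arrays gave 9.51 and 9.64 against 10.77 and 10.71. The 2 probe sets thus ranked the populations alike, and they correlated at r = 0.905 over the 16 arrays as a description. The differences were -0.76 ± 0.18 (adjusted p = 0.020, limma) and -1.17 ± 0.29 (adjusted p = 0.0228, limma). Both calls were lost when any 1 of the 4 wild-type arrays was left out, with adjusted p between 0.0933 and 0.146. In mlcNT3 mice the differences were -0.96 ± 0.18 (adjusted p = 0.00465, limma) and -1.67 ± 0.29 (adjusted p = 0.00241, limma). The first was lost without mlcNT3 TrkC-GFPon replicate 2 or TrkC-GFPoff replicate 2 (adjusted p from 0.0517 to 0.0586). In Bax-/- mice only the dimmer probe set was called, at -1.27 ± 0.29 (adjusted p = 0.0166, limma), and not without any 1 of the 4 Bax-/- arrays (adjusted p up to 0.116), while the brighter one gave -0.50 ± 0.18 (adjusted p = 0.129, limma).

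Isl1, which is needed early for sensory neuron subtypes, did not pass the test between the populations in any of the 4 genotypes. On the brighter probe set its wild-type values were 12.77 and 12.75 in proprioceptors and 12.85 and 12.71 in non-proprioceptors, and the 2 ranges overlapped. The difference was -0.02, with a 95% interval of -0.48 to 0.44, so that a difference as large as that of Isl2 lies outside it. On the dimmer one it was -0.08, with an interval of -0.54 to 0.39. The 2 Isl1 probe sets correlated at r = 0.873 over the 16 arrays.

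Pou4f3 measured between 4.39 and 6.45 on the pooled arrays, values that the genes of other organs also gave. Levels of different probe sets are not on 1 scale, and whether Pou4f3 was above background was not measured here. In wild-type mice it measured 6.11 and 6.45 in proprioceptors and 4.39 and 5.34 in non-proprioceptors. The difference was 1.41 ± 0.34 (adjusted p = 0.020, limma), and the call was lost without TrkC-GFPon replicate 1, TrkC-GFPon replicate 2 or TrkC-GFPoff replicate 1 (adjusted p from 0.0657 to 0.218). On the pooled arrays the proprioceptor mean was also the higher in the other genotypes, by 0.65 in Bax-/-, 0.74 in NT3-/-Bax-/- and 1.00 in mlcNT3 mice, with no call (adjusted p from 0.0887 to 0.340, limma). On the separate wild-type L1 arrays the order was the other way, with means of 5.94 in proprioceptors and 6.22 in non-proprioceptors.

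Of the 6 member probe sets, 3 were thus lower and 1 higher in wild-type proprioceptors, where 3.83% of all probe sets were called lower and 5.12% higher. In Bax-/- mice 2 were lower (background 3.77% called lower) and in mlcNT3 mice 3 were lower (background 5.84%). The median difference of the members was -0.42 in wild-type, against -0.07 over all probe sets. Where Bax alone was lost or NT3 was raised in muscle, no member was called against wild-type in either population, at backgrounds of 0.5% and 0.178% for Bax-/- proprioceptors and non-proprioceptors and 0.209% and 0.00444% for mlcNT3 (limma). At an unadjusted p under 0.05, 1 member passed in each of the 2 proprioceptor comparisons and 0 in the others. In Bax-/- proprioceptors it was the brighter Pou4f1 probe set, at 0.45 ± 0.18, and in mlcNT3 proprioceptors Isl2, at -0.59 ± 0.25. In Bax-/- proprioceptors Isl2 differed from wild-type by -0.51 ± 0.25 and did not pass. The Isl2 arrays of both genotypes lay below the wild-type proprioceptor arrays without overlap. The difference between populations in the effect of mlcNT3 was called for no member either (background 0.0422%, 0 members at an unadjusted p under 0.05).

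**Figure D1:**
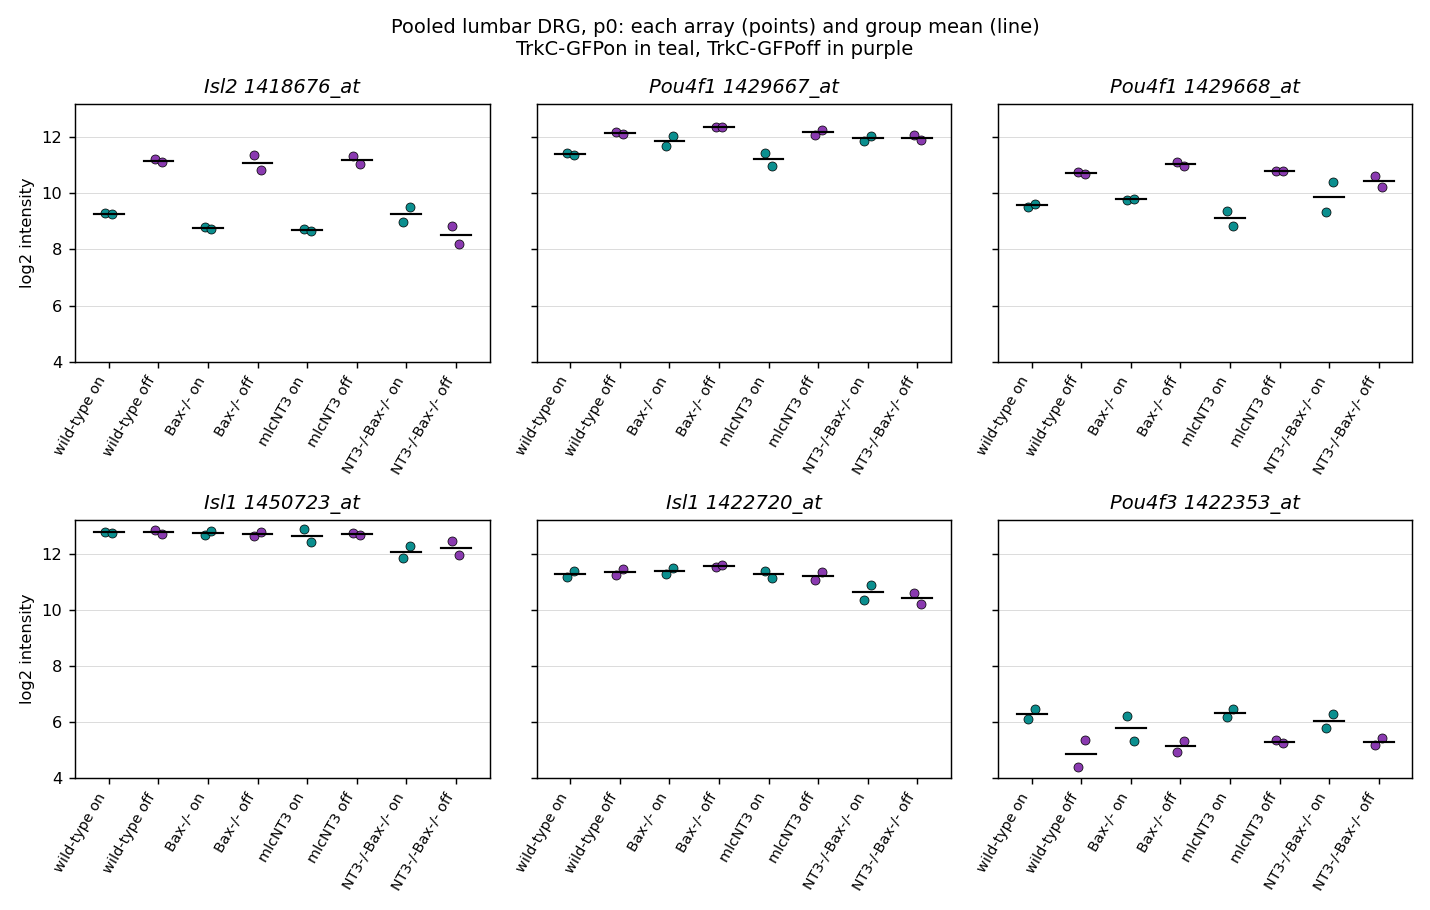
Log2 intensity (vertical axes) of the 6 member probe sets on each of the 16 pooled p0 arrays, by genotype and population (points), with the group mean (line). Isl2 lies between 8.64 and 9.29 in proprioceptors of wild-type, Bax-/- and mlcNT3 mice and between 10.83 and 11.37 in their non-proprioceptors, while both NT3-/-Bax-/- groups reach at most 9.52.

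Without NT3 the Isl2 pattern was different. NT3-/-Bax-/- proprioceptors measured 8.97 and 9.52, and NT3-/-Bax-/- non-proprioceptors measured 8.84 and 8.20. The 2 groups did not overlap, with the proprioceptors now the higher, but the difference of 0.73 ± 0.25 was not called (adjusted p = 0.0575, limma). None of the 6 members was called between these populations, where 19.3% of all probe sets were, and 2 of the 6 passed an unadjusted p under 0.05. The Isl2 difference passed the threshold when Bax-/- TrkC-GFPoff replicate 1 or 2, NT3-/-Bax-/- TrkC-GFPon replicate 1 or NT3-/-Bax-/- TrkC-GFPoff replicate 1 was left out (adjusted p from 0.0183 to 0.0497). It was 0.45 without NT3-/-Bax-/- TrkC-GFPon replicate 2 and 0.41 without NT3-/-Bax-/- TrkC-GFPoff replicate 2 (adjusted p = 0.321 and 0.328, limma), and 0.44 when each array was set relative to 8 pan-neuronal markers, a scale added after the data were seen (adjusted p = 0.199, limma).

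The distance to Bax-/- mice lay in the non-proprioceptors. There Isl2 fell by 2.58 on the log2 scale (SE 0.25, adjusted p = 4.50e-05, limma), a fold of 5.98, and against wild-type non-proprioceptors it fell by 2.65 (adjusted p = 2.65e-05, limma). In proprioceptors the difference to Bax-/- mice was 0.48 ± 0.25, with an interval of -0.06 to 1.01 (adjusted p = 0.222, limma). Against wild-type proprioceptors, at 9.29 and 9.27, it was -0.03 (adjusted p = 0.951, limma), and the arrays overlapped. The effect of losing NT3 differed between the populations by 3.06 ± 0.35 (adjusted p = 2.66e-04, limma). Isl2 was the 1 member of 6 for which this interaction was called, at a background of 4.53% called higher. The dimmer Pou4f1 probe set gave 0.71 ± 0.40 (adjusted p = 0.338, limma) and was called at 1.24 without NT3-/-Bax-/- TrkC-GFPon replicate 1 (adjusted p = 0.0270), but was 0.18 without replicate 2 (adjusted p = 0.802). The calls of Isl2 in non-proprioceptors and of its interaction were kept when any 1 of the 16 arrays was left out.

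The lower of the 2 Isl2 levels was measured on the arrays that stood apart. On them, Col1a1 measured 12.10 against 6.15 in Bax-/- mice, Cdh5 8.37 against 5.92 and Mbp 12.95 against 10.92, as markers of fibroblasts, endothelium and myelinating glia. All 5 fibroblast and all 5 endothelial markers, and 3 of 6 glial ones, were called higher, with glia also having 1 called lower. The summed level of the fibroblast list was 14.7 and 15.3 on these arrays against 10.6 and 11.5 in Bax-/- mice, and that of the endothelial list 10.6 and 10.7 against 8.14 and 8.67. A list of 4 blood cell markers summed to 6.77 on 1 of these arrays and 9.70 on the other, against 6.86 and 7.30. Of 8 pan-neuronal markers 4 were called lower, and their summed level was 15.1 and 15.3 against 15.8 and 15.9. Rbfox3 (NeuN) was 11.07 against 12.68, and Snap25 12.04 against 12.16. In sorted or whole tissue, fewer cells of a type and less RNA per cell cannot be told apart.

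Of 5 nociceptor markers on these arrays 1 was called lower and none higher, the sodium channel Scn10a at 6.77 against 10.21 in Bax-/- mice. The mean of the list was 9.14 on one array and 10.91 on the other against 11.60 and 11.69, and its summed level 12.1 and 14.1 against 14.6 on both Bax-/- arrays. The heat receptor Trpv1 was the 1 marker of the list that was not the lower, at 10.32 against 10.15. The proprioceptor genes Ntrk3 and Esrrg were called higher, at 9.12 and 8.76 against 7.13 and 6.24, while Runx3 was 4.53 against 4.08 and Pvalb 5.66 against 5.83, neither of them called. Relative to the 8 pan-neuronal markers Isl2 was still lower in NT3-/-Bax-/- than in Bax-/- non-proprioceptors by -1.92 ± 0.22 (adjusted p = 5.65e-05, limma), and the interaction was 2.80 ± 0.31 (adjusted p = 1.13e-04, limma). The part of the other cells in the remaining difference was not tested.

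For Pou4f1 the same comparison was not called on either probe set, though the arrays of the groups did not overlap. The brighter probe set measured 12.07 and 11.90 in NT3-/-Bax-/- non-proprioceptors against 12.37 and 12.36 in Bax-/- mice. The difference was -0.38, with an interval of -0.77 to 0.02 (adjusted p = 0.168, limma), which does not reach the size seen for Isl2. The dimmer one measured 10.62 and 10.24 against 11.14 and 10.97, a difference of -0.62 ± 0.29 (adjusted p = 0.150, limma), which was called without NT3-/-Bax-/- TrkC-GFPon replicate 1 or 2 (adjusted p = 0.0374) and was -0.43 without NT3-/-Bax-/- TrkC-GFPoff replicate 2 (adjusted p = 0.462). Relative to the pan-neuronal markers these differences were 0.28 ± 0.21 and 0.04 ± 0.23. In NT3-/-Bax-/- proprioceptors the brighter probe set measured 11.88 and 12.06, so that the populations differed by -0.02 ± 0.18. On the dimmer one the NT3-/-Bax-/- proprioceptor arrays were far apart, at 9.35 and 10.40, and the results that rest on them turned on which was left out. There the populations differed by -0.56 ± 0.29 (adjusted p = 0.215, limma), with -0.03 without TrkC-GFPon replicate 1 (adjusted p = 0.959) and a called -1.08 without replicate 2 (adjusted p = 0.00965), and also, at -0.85 ± 0.23, relative to the pan-neuronal markers (adjusted p = 0.0226). Against wild-type proprioceptors the brighter probe set gave a rise of 0.56 ± 0.18 (adjusted p = 0.0375, limma), but against Bax-/- proprioceptors the difference was 0.11 ± 0.18 (adjusted p = 0.749, limma). The rise against wild-type was lost without any 1 of 10 arrays, namely all wild-type, NT3-/-Bax-/- TrkC-GFPon, Bax-/- TrkC-GFPoff and mlcNT3 TrkC-GFPoff arrays (adjusted p up to 0.155), and the dimmer probe set did not pass (0.30 ± 0.29, adjusted p = 0.501, limma). The latter was called at 0.83 without NT3-/-Bax-/- TrkC-GFPon replicate 1 (adjusted p = 0.0311), changed sign to -0.22 without replicate 2 (adjusted p = 0.557), and was 0.67 ± 0.23 relative to the pan-neuronal markers (adjusted p = 0.0469).

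Isl1 was called lower without NT3 on both probe sets in proprioceptors and on 1 of them in non-proprioceptors. On the brighter probe set NT3-/-Bax-/- proprioceptors measured 11.85 and 12.28 against 12.66 and 12.80 in Bax-/- mice, and on the dimmer one 10.34 and 10.90 against 11.27 and 11.49. The groups did not overlap on either probe set. The differences were -0.67 ± 0.21 (adjusted p = 0.0466, limma) and -0.76 ± 0.21 (adjusted p = 0.0267, limma). The first call was lost without any 1 of 11 arrays (all Bax-/- and all wild-type arrays, both mlcNT3 TrkC-GFPoff arrays and NT3-/-Bax-/- TrkC-GFPon replicate 1) and the second without Bax-/- TrkC-GFPon replicate 1 or 2 or NT3-/-Bax-/- TrkC-GFPon replicate 1 (adjusted p up to 0.293 and 0.218). Against wild-type proprioceptors the differences were -0.70 ± 0.21 and -0.66 ± 0.21 (adjusted p = 0.0288 and 0.0378, limma), which were lost without any 1 of 3 and of 7 arrays. These were NT3-/-Bax-/- TrkC-GFPon replicate 1 and both wild-type proprioceptor arrays for both probe sets, and for the dimmer one also both wild-type and both Bax-/- non-proprioceptor arrays (adjusted p up to 0.212 and 0.299). In these 2 comparisons 2 of 6 member probe sets, both of Isl1, were called lower against Bax-/- (background 9.17%). Against wild-type the same 2 were called lower and 1 higher (backgrounds 12.7% and 13.3%). Other markers also moved in NT3-/-Bax-/- proprioceptors. Against Bax-/- mice 4 of 6 glial markers were called lower, with list means of 8.53 and 9.35 against 10.36 and 10.67, and so were 2 of 4 proprioceptor markers (Pvalb and Runx3), with list means of 9.56 and 10.48 against 11.47 and 11.53. The 8 pan-neuronal markers averaged 12.18 and 12.47 against 12.67 and 12.78, and the part of these changes in the Isl1 difference was not tested.

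In NT3-/-Bax-/- non-proprioceptors, the dimmer Isl1 probe set was 10.60 and 10.22 against 11.52 and 11.61 in Bax-/- mice, a difference of -1.16 ± 0.21 (adjusted p = 0.00248, limma). The brighter one was 12.47 and 11.96 against 12.62 and 12.77 and was not called (-0.48 ± 0.21, adjusted p = 0.131, limma). It was called at -0.73 without NT3-/-Bax-/- TrkC-GFPoff replicate 1 (adjusted p = 0.0456) and was -0.23 without replicate 2 (adjusted p = 0.566). Against wild-type non-proprioceptors the differences were -0.95 ± 0.21 (adjusted p = 0.00628, limma) and -0.57 ± 0.21 (adjusted p = 0.0672, limma). The first of these was lost without NT3-/-Bax-/- TrkC-GFPoff replicate 2 or wild-type TrkC-GFPoff replicate 2 (adjusted p from 0.0525 to 0.0583), and the second was called at -0.82 without NT3-/-Bax-/- TrkC-GFPoff replicate 1 (adjusted p = 0.0240) and was -0.32 without replicate 2 (adjusted p = 0.385). With Isl2, 2 of 6 members were called lower in these comparisons, at backgrounds of 11.8% against Bax-/- and 14.4% against wild-type. Relative to the 8 pan-neuronal markers none of the Isl1 calls in NT3-/-Bax-/- mice was kept. In proprioceptors the differences to Bax-/- mice became -0.27 ± 0.20 and -0.36 ± 0.22 (adjusted p = 0.309 and 0.218, limma), and in non-proprioceptors that of the dimmer probe set became -0.50 ± 0.22 (adjusted p = 0.0657, limma). The difference of Isl2 to Bax-/- proprioceptors became 0.88 ± 0.22 on that scale and passed (adjusted p = 0.0119, limma). To wild-type proprioceptors it lay between -0.04 and 0.33 over the alternatives, those that left out 1 array aside.

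**Figure D2:**
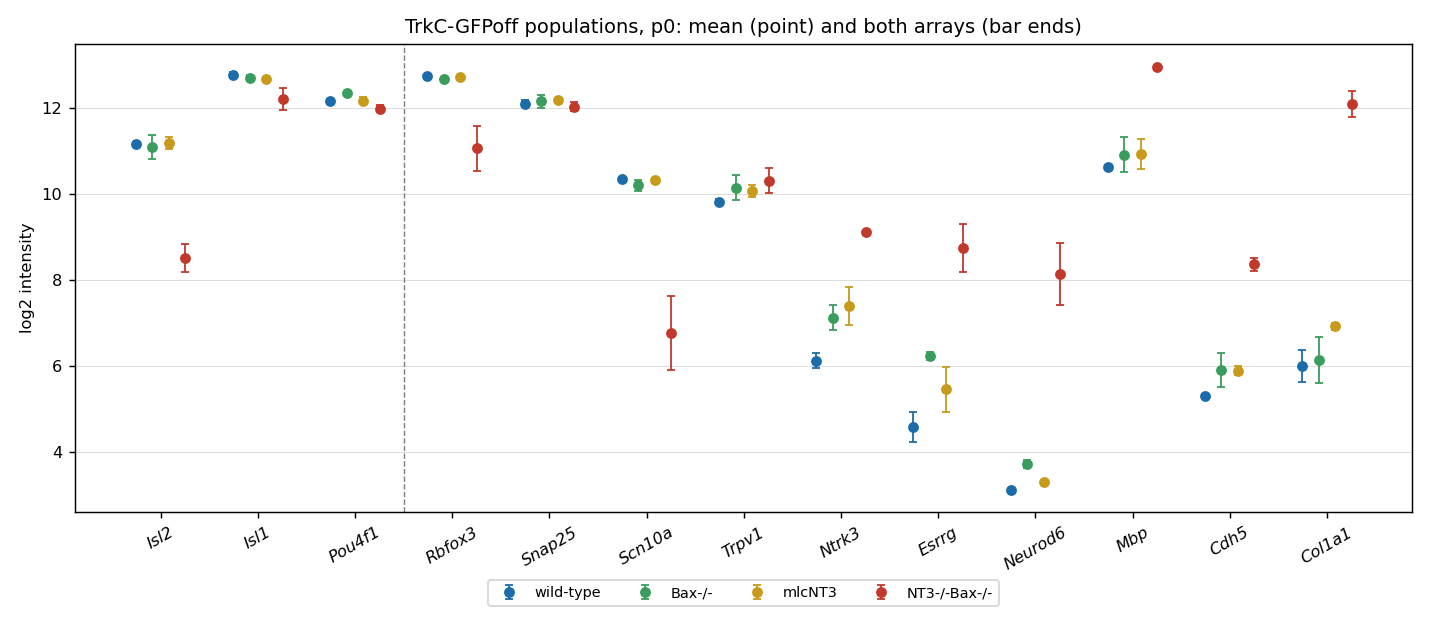
Log2 intensity (vertical axis) in the TrkC-GFPoff populations of the 4 genotypes for Isl2, Isl1 and Pou4f1 (left of the dashed line, the brighter probe set of each) and for markers of neurons, glia, endothelium and fibroblasts (right). Points are means of 2 arrays and bar ends the arrays themselves. NT3-/-Bax-/- non-proprioceptors measure 8.52 for Isl2 and 12.10 for Col1a1, against 11.10 and 6.15 in Bax-/- mice, and 11.99 for Pou4f1, with both arrays just under those of the other genotypes.

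The same members were measured again on the separate wild-type p0 arrays of single levels. Isl2 measured 8.91 and 8.98 in L1 proprioceptors against 11.68, 11.32 and 11.21 in L1 non-proprioceptors. At L5 it measured 9.08, 9.19 and 8.36 against 11.52, 11.39 and 10.88. The populations were again apart on every array, by -2.46 ± 0.26 at L1 (adjusted p = 6.63e-05, limma) and -2.39 ± 0.24 at L5 (adjusted p = 3.04e-05, limma). For Pou4f1, the brighter probe set gave 11.02 and 10.92 against a range of 11.59 to 12.05 at L1, and 11.09, 10.90 and 10.79 against 11.90, 11.75 and 11.64 at L5. No array of one population reached the other. The differences were -0.91 ± 0.17 (adjusted p = 0.00270, limma) and -0.84 ± 0.15 (adjusted p = 0.00202, limma). On the dimmer probe set they were -1.24 ± 0.20 (adjusted p = 0.00105, limma) and -1.36 ± 0.18 (adjusted p = 2.20e-04, limma). These 3 of 6 members were called lower at each level (backgrounds 8.92% at L1 and 10% at L5), and all these calls held when any 1 of the 11 arrays was left out. In the non-proprioceptors of both levels the fibroblast markers averaged 8.35 to 9.95 per array, against 5.92 to 7.20 in the proprioceptors, and the 8 pan-neuronal markers averaged at least 12.80 on all 11 arrays. Relative to the pan-neuronal markers 3 members were called lower at each level, and the part of the fibroblast and endothelial RNA was not tested.

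Isl1 again did not pass the test between populations. At L5 the difference on the brighter probe set was 0.02, with an interval of -0.21 to 0.25. At L1 the 2 probe sets gave -0.12 and -0.33, with intervals of -0.38 to 0.14 and -0.65 to -0.01, and neither was called (adjusted p = 0.579 and 0.156, limma).

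**Figure D3:**
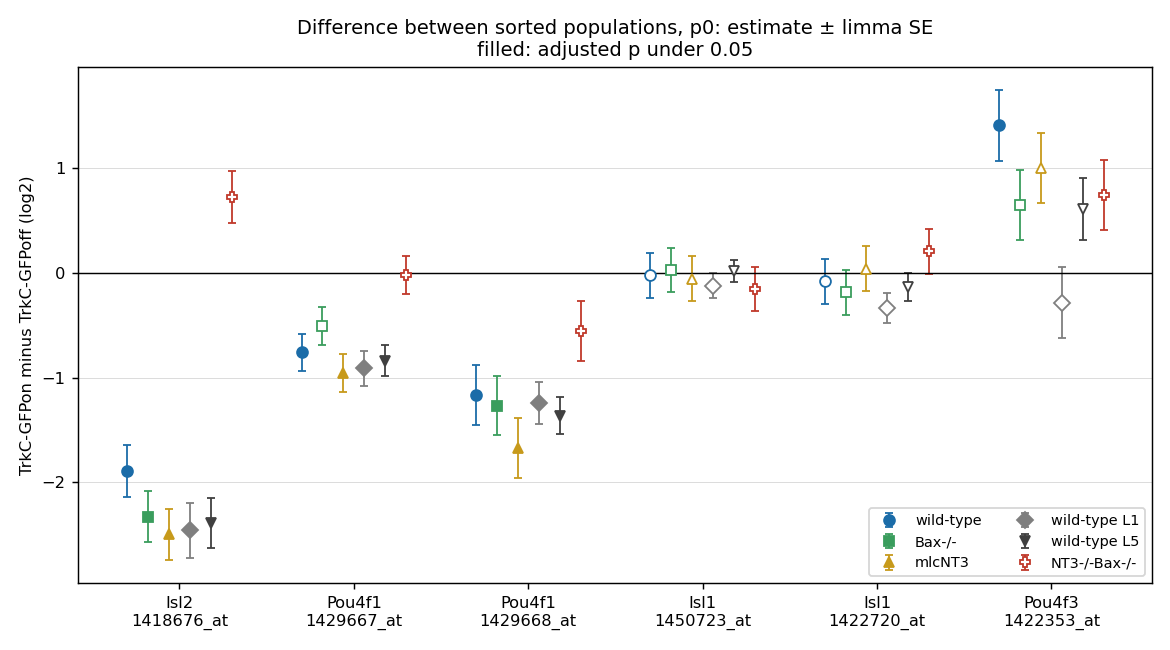
Difference between TrkC-GFPon and TrkC-GFPoff populations (vertical axis, log2) for each member probe set in 6 comparisons of p0 mice, with limma's SE as bars and filled marks where the adjusted p was under 0.05. Isl2 lies between -2.50 and -1.89 in the 5 comparisons with NT3 present and at 0.73 in NT3-/-Bax-/- mice, and the Isl1 marks lie between -0.33 and 0.21.

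No member was called between L1 and L5 in proprioceptors or in non-proprioceptors of p0 mice, at backgrounds of 0.397% and 0.16% (limma). At an unadjusted p under 0.05, 2 passed in proprioceptors and 0 in non-proprioceptors. The difference of this contrast between the populations was called for no member (background 0.0666%, 0 at an unadjusted p under 0.05). Isl2 differed by -0.07 in proprioceptors, with an interval of -0.65 to 0.51. Pou4f3 measured 7.46, 7.98 and 6.74 in L5 proprioceptors against 6.09 and 5.79 in L1 proprioceptors. These groups did not overlap, and the difference of 1.46 ± 0.34 had an adjusted p of 0.122 (limma), or of 0.0306 without L5 TrkC-GFPon replicate 3. In L5 non-proprioceptors Pou4f3 was 7.00, 6.81 and 6.55, and the 14 genes of other organs had means of 3.45 to 7.90 on these arrays. Without the same array the Pou4f3 difference between L5 populations, 0.61 ± 0.30 (adjusted p = 0.193, limma), was also called (adjusted p = 0.0328), while it was 0.32 without L5 TrkC-GFPon replicate 2 (adjusted p = 0.519). Between the L1 populations Pou4f3 had the other order, with means of 5.94 in proprioceptors and 6.22 in non-proprioceptors, overlapping arrays and no call.

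In whole adult DRG, Isl2 was between 9.72 and 10.55 on all 12 arrays, the brighter Isl1 probe set between 11.49 and 11.94, the brighter Pou4f1 probe set between 9.66 and 10.34, and Pou4f3 between 4.33 and 5.28. Adult and newborn values stand side by side only, since tissue and amount of material differed. Without a wheel Isl2 measured 10.55, 10.38 and 10.40 at L1 and 10.23, 9.85 and 9.72 at L5. It was lower at L5, by -0.51 ± 0.11 (adjusted p = 0.0162, limma), a fold of 1.43, and it was the 1 member of 6 called (background 2.76% called lower). This call was lost without L1 no-wheel replicate 1 or L5 no-wheel replicates 2 or 3 (adjusted p from 0.0544 to 0.0858). With a wheel Isl2 measured 10.36, 10.38 and 10.35 at L1 and 10.34, 10.43 and 10.32 at L5, a difference of 0.00 with an interval of -0.23 to 0.24.

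Isl2 at L5 was 0.43 ± 0.11 higher with a wheel than without, with no overlap of the arrays and no call (adjusted p = 0.0827, limma). It was called without L5 no-wheel replicate 1 (0.58, adjusted p = 0.00707) and was 0.32 without replicate 3 (adjusted p = 0.209). The difference between the levels in the effect of running, 0.52 ± 0.16, was not called either (adjusted p = 0.267, limma), though it was without that same array (adjusted p = 0.0400). For this interaction 0 of 45037 probe sets were called, and 2 members passed an unadjusted p under 0.05.

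Pou4f1 was lower at L5 in running mice. On the brighter probe set L5 measured 9.67, 9.75 and 9.66 against 9.91, 10.34 and 10.21 at L1, and on the dimmer one 8.85, 8.84 and 8.87 against 9.13, 9.27 and 9.23. The differences were -0.46 ± 0.11 (adjusted p = 0.0218, limma) and -0.36 ± 0.10 (adjusted p = 0.0409, limma). This made 2 of 6 member probe sets, both of the same gene (background 2.17% called lower). Both calls were lost without L1 wheel replicate 2 or 3 or any of the 3 L5 wheel arrays (adjusted p from 0.0519 to 0.138). Without a wheel the differences were 0.07 ± 0.11 and -0.25 ± 0.10 (adjusted p = 0.827 and 0.172, limma). No member was called for the effect of running at L1 (background 0.242%, 2 members at an unadjusted p under 0.05) or at L5 (background 0.48%, 1 member). Without L1 wheel replicate 1, the brighter Pou4f1 probe set was called for running at L1 (0.47 against 0.34 with all arrays, adjusted p = 0.0340), and it was 0.25 without replicate 2 (adjusted p = 0.656).

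Neuron types differed between the adult levels as well. The proprioceptor genes Pvalb, Runx3 and Esrrg were called higher at L5 without a wheel and these 3 and Ntrk3 with one, and Runx3 measured 6.51 at L5 against 5.38 at L1 without a wheel. The nociceptor factor Runx1 was 10.43 against 10.74 without a wheel and 10.48 against 10.97 with one, and only the latter was called. Relative to the pan-neuronal markers the Isl2 difference without a wheel was as large, at -0.55, but its SE rose to 0.19 and it was not called (adjusted p = 0.290, limma). The Pou4f1 differences with a wheel were -0.34 ± 0.17 and -0.24 ± 0.17 on that scale and were not called either (adjusted p = 0.510 and 0.789, limma). Other cell markers differed too. On the L5 arrays without a wheel the blood list summed to between 8.91 and 10.49, against 8.31 to 9.08 in the other adult groups. The fibroblast markers averaged 10.53 to 11.29 per array there, against 10.25 to 10.71. The part of neuron makeup and of other cells in these differences was not tested.

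**Figure D4:**
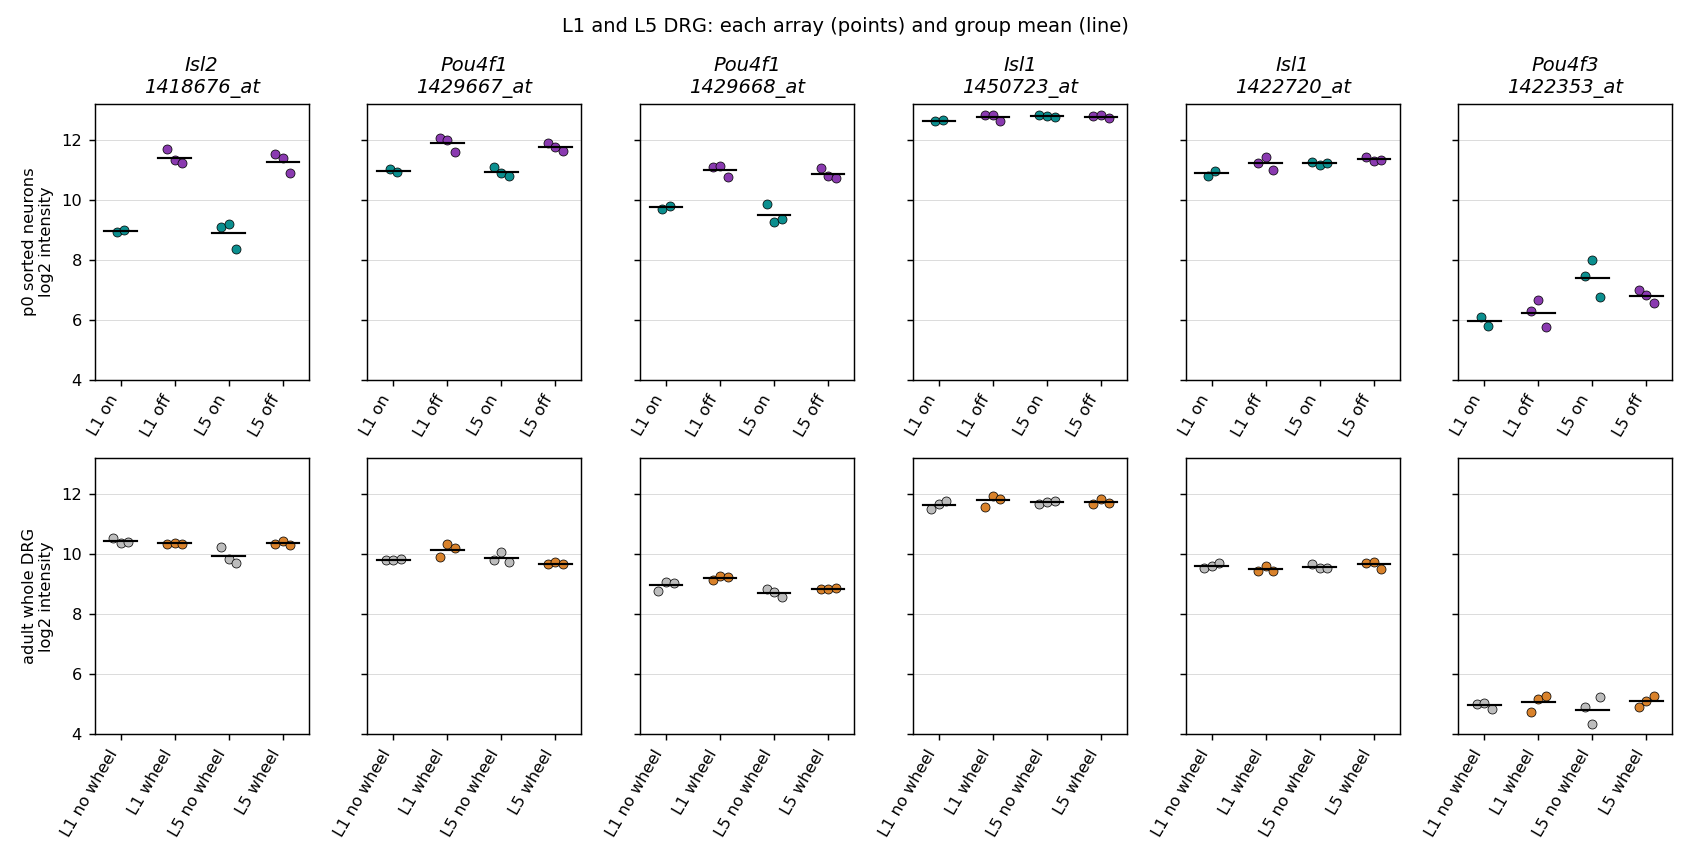
Log2 intensity (vertical axes) of the 6 member probe sets on each array from L1 and L5 DRG, for sorted p0 populations (upper row) and whole adult DRG with or without a running wheel (lower row), with group means as lines. Isl2 parts the p0 populations at both levels (8.36 to 9.19 against 10.88 to 11.68), and in the adult its lowest values, 9.72 and 9.85, are from L5 without a wheel.

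Of 11 other POU genes 8 were measured. Pou6f1, a POU factor of the nervous system, was at 11.24 in wild-type proprioceptors and 11.15 in wild-type non-proprioceptors. All 10 other LIM-homeodomain genes (Lhx and Lmx1) had group means of at most 5.76 (Lhx3) in every group, and none of either family was called between wild-type populations. The highest single value of a LIM-homeodomain gene, 7.03, was on an array of NT3-/-Bax-/- non-proprioceptors. Lmx1a, 1 of these 10, was called higher in L5 proprioceptors than in L5 non-proprioceptors (0.56 ± 0.17, adjusted p = 0.0375, limma). The share of all probe sets called higher there is not given here. None of the 10 genes passed 5.71 on the L5 arrays, a level that the genes of other organs also gave (means of 3.45 to 7.90). Of 7 homeodomain cofactors measured, 1 was higher and 2 lower in wild-type proprioceptors (backgrounds 5.12% and 3.83%). Ldb2, a partner of LIM-homeodomain proteins, was 6.87 against 12.13, a difference of -5.27 ± 0.41 (adjusted p = 8.95e-06, limma). Without NT3 it was 11.13 in proprioceptors and 10.31 in non-proprioceptors, differences of 2.95 ± 0.41 and -1.84 ± 0.41 to Bax-/- mice (adjusted p = 4.14e-04 and 0.00682, limma). Ssbp3, which binds Ldb proteins, was -0.85 ± 0.17 in wild-type proprioceptors (adjusted p = 0.00838, limma), and Hipk2, a kinase that binds Brn3a, was 1.35 ± 0.24 (adjusted p = 0.00342, limma).

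Of 5 genes known to depend on Pou4f1 or Isl1, 4 were measured. In wild-type proprioceptors Ntrk3 (TrkC, whose regulatory elements drive the sorted GFP) and Runx3 were higher, Runx1 was lower and Ntrk2 was not called (backgrounds 5.12% higher and 3.83% lower). Runx3 was 10.00 against 4.37, and Runx1 6.18 against 11.42. In NT3-/-Bax-/- non-proprioceptors Ntrk3 and Ntrk2 (10.64 against 9.42) were called higher than in Bax-/- mice and none lower (background 9.91% higher).

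Of 11 genes that Pou4f1 and Isl1 are known to hold down, 1 was lower in wild-type proprioceptors (background 3.83%) and none was higher. This was Insm1, a zinc finger factor of young neurons, at 5.10 against 8.88, a difference of -3.78 ± 0.50 (adjusted p = 4.12e-04, limma). In NT3-/-Bax-/- proprioceptors Insm1 and Msc were higher than in Bax-/- mice, Insm1 at 9.29 against 6.56. The share of all probe sets called higher in this comparison is not given here, so this count has no background beside it. In NT3-/-Bax-/- non-proprioceptors 3 of the 11 were called higher than in Bax-/- mice and 0 lower, against a background of 9.91% higher. They were the bHLH genes Neurod6 (8.15 against 3.74, 4.41 ± 0.45, adjusted p = 6.92e-05, limma), Neurod1 (10.14 against 7.88, 2.26 ± 0.47, adjusted p = 0.00512, limma) and Neurog2 (5.30 against 4.37, 0.94 ± 0.21, adjusted p = 0.00692, limma). These are the arrays with high fibroblast, endothelial and glial markers, whose part was not tested. On the other arrays Neurod6 had group means between 2.80 and 3.74.

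Of 14 other sensory transcription factors, 4 were higher and 5 lower in wild-type proprioceptors (backgrounds 5.12% and 3.83%). Esrrg and Shox2 were among the higher, at 6.68 ± 0.38 and 3.12 ± 0.36 (adjusted p = 1.41e-06 and 1.62e-04, limma). Ebf3 was the largest of the lower, at -2.18 ± 0.20 (adjusted p = 2.62e-05, limma), and gave -2.37 ± 0.25 on the L1 and -1.88 ± 0.23 on the L5 arrays, called at both. Without NT3, Ebf3 in proprioceptors rose by 2.81 ± 0.20 over Bax-/- mice (adjusted p = 4.85e-06, limma), and Prrxl1 (Drg11) was lower, at -2.21 ± 0.44 (adjusted p = 0.00455, limma).

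The genes most like the members were sought among 5683 genes by Pearson correlation over the 16 pooled p0 arrays, which share group structure, and are given as a description. For Isl2 they were 2700081O15Rik (r = 0.986), the GDNF co-receptor Gfra1 (r = 0.970) and the G protein subunit Gnao1 (r = 0.964). Over the 11 L1 and L5 arrays, which did not choose them, the values were 0.955, 0.956 and 0.968. Those arrays hold the same split by GFP, so a gene that differs between the populations would correlate there too. They are thus no separate check. For Pou4f1 they were the synaptotagmin Syt7 (r = 0.932), the collagen receptor Ddr1 (r = 0.920) and Arfgef3 (r = 0.920), with 0.941, 0.923 and 0.925 over the 11 arrays. For Pou4f3 the closest gene, Cnnm2, had r = 0.880 and then 0.429, and the brighter Isl1 probe set spanned less than 1 on the log2 scale between groups and was not matched.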

How the data were processed

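Expression was measured on 39 Affymetrix arrays of mouse DRG. RNA was amplified before labelling. The authors read the arrays in R 2.9 with affy, made values with RMA and present calls with MAS5, and compared groups with a t-test or analysis of variance. The deposited intensity values are linear, one per probe set and array, and were turned to log2 here with no pseudocount. Depth does not apply to arrays, and precision is limited by their number. Of 45101 probe sets, 64 controls were left out. Platform annotation named 1 gene for 34958 probe sets, several for 932 and none for 9211, and only the first were used. Bax and Ntf3 were named for no probe set, so that the mutants were not checked on their own transcripts. One fit per set of arrays (16 pooled p0, 11 p0 L1 and L5, 12 adult) was made with limma 3.58.1 in R 4.3.3 (a mean per group, lmFit and eBayes), after tests on simulated data, with Benjamini-Hochberg adjustment over 45037 probe sets. Adult samples were used as whole DRG, as the methods describe, though each adult title names a TrkC sign (1 sign per level). The brightest probe set over all arrays stood for a listed gene. Named genes were all members, up to 4 called genes with the largest change per list (others give context beside a result) and the 3 genes most correlated with a member. The members and lists were chosen with earlier results of these data known. Alternatives were quantile normalization, a filter, a pseudocount, an intensity trend, fits of single pairs of groups, the methods' t-test, a replicate block and leaving out each array. Added after seeing the data were a scale relative to pan-neuronal markers and leaving out both NT3-/-Bax-/- non-proprioceptor arrays.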

Additional observations from a re-analysis of the deposited data

Results flagged for a closer look

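The effect of losing NT3 on Isl2 differed between the sorted populations of p0 mice. NT3-/-Bax-/- minus Bax-/- was 0.48 ± 0.25 in proprioceptors and -2.58 ± 0.25 in non-proprioceptors on the log2 scale, and the test of the difference itself gave 3.06 ± 0.35 (adjusted p = 2.66e-04, limma, 2 arrays per group). All 4 non-proprioceptor arrays of the 2 genotypes moved apart without overlap, and so did the 4 proprioceptor arrays in the other direction. Against wild-type, however, NT3-/-Bax-/- proprioceptors, at 8.97 and 9.52, overlapped with the wild-type arrays, at 9.29 and 9.27. That difference was -0.03 (adjusted p = 0.951, limma). Bax-/- proprioceptors, the control here, differed from wild-type ones by -0.51 ± 0.25, with no overlap of the arrays and no call. The NT3-/-Bax-/- non-proprioceptor arrays are those with high fibroblast, endothelial and glial markers. On them Scn10a and some pan-neuronal markers were also called lower than in Bax-/- mice, and Ntrk3 and Esrrg higher. The part of these changes in the Isl2 difference was not tested.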

How the results depend on the processing

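No result changed direction while called, and quantile normalization, a pseudocount of 32 and an intensity trend left each count of called members within 1.5 times, as did leaving out both NT3-/-Bax-/- non-proprioceptor arrays for the comparisons without them. Counts of called members are given below, out of 6 except under the filter. A filter at the median level left Pou4f3 untested in the pooled p0 and adult sets, so that its wild-type call could not be made there. With this filter, NT3-/-Bax-/- proprioceptors against non-proprioceptors had 1. With only the compared groups in the fit, NT3-/-Bax-/- proprioceptors had 0 against Bax-/- and 0 against wild-type, and adult L5 against L1 without a wheel had 0. Relative to pan-neuronal markers the count was 1 for NT3-/-Bax-/- proprioceptors against non-proprioceptors, 1 for NT3-/-Bax-/- against Bax-/- proprioceptors, 1 for NT3-/-Bax-/- non-proprioceptors against Bax-/- and 1 against wild-type, and 0 for adult L5 against L1 without and with a wheel. The methods' t-test at their threshold gave 1 in mlcNT3 proprioceptors against non-proprioceptors, 0 and 0 for NT3-/-Bax-/- proprioceptors against Bax-/- and wild-type, 1 for Bax-/- and 1 for mlcNT3 against wild-type proprioceptors, 0 and 1 for NT3-/-Bax-/- non-proprioceptors against Bax-/- and wild-type, 2 for L5 against L1 proprioceptors, and 0 and 1 for adult L5 against L1 without and with a wheel. After Benjamini-Hochberg it gave 1 between the L1 populations and 0 between the wild-type, Bax-/- and mlcNT3 populations, for NT3-/-Bax-/- against Bax-/- or wild-type in either population and for adult L5 against L1. The cause was not tested.

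Replicate numbers did not pair the samples by the rule used. The rule asked for at least 3 shared numbers and for every same-number correlation of deviations to pass a set minimum. At L5 these were 0.0849 to 0.203 between the populations, and only the lowest fell short of the minimum. The other-number correlations there were -0.141 to 0.0436, all below the same-number ones, so that pairing at L5 is not excluded. The pooled p0 populations and those of L1 share 2, so that it cannot decide pairing there. Between the pooled populations the same-number correlations were 0.197 in wild-type, 0.283 in Bax-/-, 0.158 in NT3-/-Bax-/- and 0.0077 in mlcNT3 mice. With the replicate block the count was 2 between wild-type populations (without the Pou4f1 probe sets, adjusted p = 0.0525 and 0.0506, limma), 1 for NT3-/-Bax-/- against Bax-/- proprioceptors, 1 for L5 against L1 proprioceptors (Pou4f3, adjusted p = 0.0282, limma) and 1 for adult L5 against L1 with a wheel, and the other 20 counts stayed within 1.5 times.

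Leaving out 1 array at a time gave 1 to 4 calls between wild-type populations, 1 to 2 in Bax-/-, 0 to 1 in NT3-/-Bax-/- and 2 to 3 in mlcNT3 mice. It gave 0 to 2 and 0 to 3 for NT3-/-Bax-/- proprioceptors against Bax-/- and wild-type, 2 to 3 and 1 to 3 for the non-proprioceptors, 1 to 2 for the NT3 interaction, 3 to 3 and 3 to 4 between populations at L1 and L5, and 0 to 1 for L5 against L1 proprioceptors. In the adult it gave 0 to 1 and 0 to 2 for L5 against L1 without and with a wheel, and 0 to 1 for running at each level and for their interaction. Where it left 1 array in a group, that array was assumed to vary like the others.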
